A study of Danio rerio with 36 samples.

Results

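Fibroblasts sorted from zebrafish caudal fins at 4 days post amputation (dpa) were compared with fibroblasts from uninjured fins (0 dpa) by RNA-seq. The 4 libraries, 2 per group, were chosen by their sample titles and all belong to batch 3. They are 4 of the 36 samples of the series and 4 of its 18 RNA libraries. Each library was made from the pooled fins of 75 fish. The growth protocol gives these fish as Tg(tph1b:mCherry-NTR;ubi:switch), and the treatment protocol names Tg(tph1b:creER;ubi:switch); the genotype label of all 4 is wild type. In both transgenes a tph1b regulatory sequence, active in fin fibroblasts, drives the marker or the recombinase. Fins of both groups had first been clipped, exposed at 2 dpa to 4 µM tamoxifen for 12 h and left to grow back for 2 months, so the uninjured fins were themselves regrown fins. The sort for mCherry-positive cells and the dissociation at 37°C with Liberase are written in the accessibility section of the protocol. The age of these fish and the number of cells behind each RNA library were not given by the sources used here. For comparison the 4 whole-fin libraries of batch 1 were used, 2 at 0 dpa and 2 at 4 dpa, each from 15 fish of the outbred Ekkwill (EK) strain aged 4 to 12 or 3 to 12 months, as one protocol or the other has it. Those fins were neither sorted nor, per the treatment protocol, given tamoxifen.

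The zebrafish caudal fin grows back its bony rays, joints, connective tissue and skin after amputation. Fibroblasts inside the rays lose part of their mature character, divide and gather under the wound epidermis as a blastema, the pool of progenitors from which the new connective tissue forms. On the way out they lay down actinotrichia, stiff fibrils of actinodins and collagens that carry the growing fin fold, and they exchange Wnt, Fgf, Bmp, Hedgehog, retinoic acid and Notch signals with osteoblasts and epidermis. The stage compared here, 4 dpa, falls in the outgrowth phase, when the blastema is established and the rays lengthen.

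The 4 libraries held 36522921 to 43871436 gene counts. Levels are given as CPM, counts scaled to library size with edgeR's TMM factors, always in the order replicate 1 and replicate 2, and a difference between groups as a log2 fold change (4 dpa minus 0 dpa). A gene is said to have risen or fallen where edgeR's quasi-likelihood test gave an adjusted p (Benjamini-Hochberg, over all 12011 genes tested) under 0.05. CPM is not divided by transcript length, so levels of different genes are not ranked against each other. Shares in percent of gene counts are of the unscaled counts of a library, without TMM factors. They can therefore differ from CPM in how the groups compare. In a bulk library fewer cells of a type and less RNA per cell cannot be told apart.

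Of 12011 genes tested, 6477 (53.9%) differed between the groups: 3335 (27.8%) were higher and 3142 (26.2%) lower at 4 dpa, and 4089 changed at least 2-fold. The median log2 fold change of all tested genes was close to 0. For 79.1% of tested genes the 2 libraries of one group lay above the 2 of the other with no overlap. Without 4 dpa replicate 1 the test called 3827 genes and without 4 dpa replicate 2 it called 4026; 3437 genes kept their call and direction without each library in turn, 1930 higher and 1507 lower. Scaling by library size alone moved the median of all genes to 0.32 and made 67.7% of the calls higher instead of 51.5%, so small changes in either direction depend on the scaling. The genes named below kept their call without each library in turn unless said otherwise.

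Defining genes of fin fibroblasts were read in all 4 libraries. Of 22 members of the fibroblast identity list 5 were higher at 4 dpa, 6 lower and 11 without a call. Both shares lay near the 27.8% higher and 26.2% lower among all genes tested. The median log2 fold change of the list was -0.09, and under library-size scaling 10 members were higher and 4 lower. The receptor gene pdgfra was read at 129.9 and 126 CPM at 0 dpa and 122 and 158 CPM at 4 dpa, and the connective tissue factor prrx1a at 428 and 495 CPM at 0 dpa and 559 and 569 CPM at 4 dpa; neither differed past the threshold (edgeR adjusted p = 0.519 and 0.143), though both passed upward under library-size scaling. The collagen gene col1a2 stood at 23518 and 23487 CPM at 0 dpa and 15413 and 19879 CPM at 4 dpa. The tryptophan hydroxylase gene tph1b, whose regulatory sequence marked the cells, was read at 5.08 and 5.86 CPM at 0 dpa and 197 and 189.7 CPM at 4 dpa. It was low in both uninjured libraries and high in both 4 dpa libraries (log2 fold change 5.14, edgeR adjusted p = 5.22e-07, SE 0.17). One protocol names a tph1b-driven marker and the other a tph1b-driven recombinase. Whether the sorted marker followed the level of tph1b at the time of the sort is therefore not known. Whether more or other cells passed the sort at 4 dpa was not tested.

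Marker lists of other cell types moved with the groups. The 36 epidermis markers found summed to 5.08 and 2.89% of gene counts at 0 dpa and 1.86 and 1.72% at 4 dpa. Of the 34 tested, 23 were lower and 1 higher, with fewer lower without 4 dpa replicate 2. The basal keratin krt5 had 24596 and 8501 CPM at 0 dpa and 2938 and 2821 CPM at 4 dpa. Both uninjured libraries were higher, and replicate 1 stood well above replicate 2 (log2 fold change -2.52, edgeR adjusted p = 0.0132, SE 0.54; the call was lost without either 4 dpa library). The adhesion gene epcam, 925 and 481 CPM at 0 dpa and 84.7 and 82.1 CPM at 4 dpa, and the epidermal factor tp63, 133 and 51.3 CPM at 0 dpa and 13.4 and 13 CPM at 4 dpa, showed the same order of libraries. Of 34 leukocyte markers tested 20 were higher and 7 lower, with fewer lower without 4 dpa replicate 1. Members called lower included the lymphocyte genes gata3, il7r and lck and the antigen presentation genes cd74a and cd74b. Not all calls in the leukocyte list held without each library in turn. The 37 leukocyte markers found made up 0.0968 and 0.129% of gene counts at 0 dpa and 0.258 and 0.262% at 4 dpa. The macrophage gene mpeg1.1 had 44.6 and 110.2 CPM at 0 dpa and 144 and 173 CPM at 4 dpa and did not pass the test (edgeR adjusted p = 0.129; called without either 0 dpa library, with the replicate block and by DESeq2). The macrophage receptor csf1ra had 31.5 and 40.1 CPM at 0 dpa and 95.9 and 95.1 CPM at 4 dpa (log2 fold change 1.42, edgeR adjusted p = 7.72e-05, SE 0.16). Of 9 osteoclast markers 6 rose and 3 fell (3 rose without either 4 dpa library), led by the protease ctsk at 258 and 331 CPM at 0 dpa and 1072 and 1204 CPM at 4 dpa. Endothelial, pigment cell and erythrocyte lists each took 0.00312 to 0.0211% of the counts of a library. Of their defining genes, cdh5 (at most 0.163 CPM) and dct (at most 0.528 CPM) were near 0. Of 26 endothelial markers tested 2 were higher and 6 lower, and of 21 pigment cell markers 3 were higher and 5 lower. Of 15 erythrocyte markers tested 7 were higher and 1 lower. Among all genes tested 27.8% were higher and 26.2% lower. The endothelial gene kdrl was called lower at 4 dpa. The pigment cell gene gch2 was called higher, while more members of its list were lower. Not all calls in their lists held without each library in turn. Muscle and pericyte markers summed to 0.0947 and 0.105% of gene counts at 0 dpa and 0.0261 and 0.0254% at 4 dpa, with 7 of 20 lower and 3 higher. The pericyte genes acta2 and rgs5b were among those lower. The skeletal muscle gene mylpfa was near 0, with 0 and 0.139 against 0.072 and 0.0933 CPM at 0 against 4 dpa. Other muscle genes moved both ways, with ckma and tnnt3b called higher and mb and mylz3 called lower. Not all calls in this list held without each library in turn. Of 17 nerve and glia markers 12 were lower and 1 higher (6 lower without 4 dpa replicate 1 and 8 without replicate 2). Tested or not, the 24 markers found summed to 0.058 and 0.063% of gene counts at 0 dpa and 0.0859 and 0.0859% at 4 dpa. This nerve and glia sum was higher at 4 dpa although most tested members fell. The 1 member called higher was tubb5. The part of single members in the sum is not given here. The glial filament gene gfap had 26.8 and 33.7 CPM at 0 dpa and 4.68 and 3.57 CPM at 4 dpa (log2 fold change -2.87, edgeR adjusted p = 7.84e-06, SE 0.22). The myelin gene mpz had 0.149 and 0.278 against 0.048 and 0.117 CPM. The blood gene hbaa1 had 0.52 and 0.278 CPM at 0 dpa and 7.32 and 8.21 CPM at 4 dpa, a rise on a low level (log2 fold change 4.26, edgeR adjusted p = 1.46e-05, SE 0.37). The part of other cell types in the differences reported below was not tested.

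**Figure D1:**
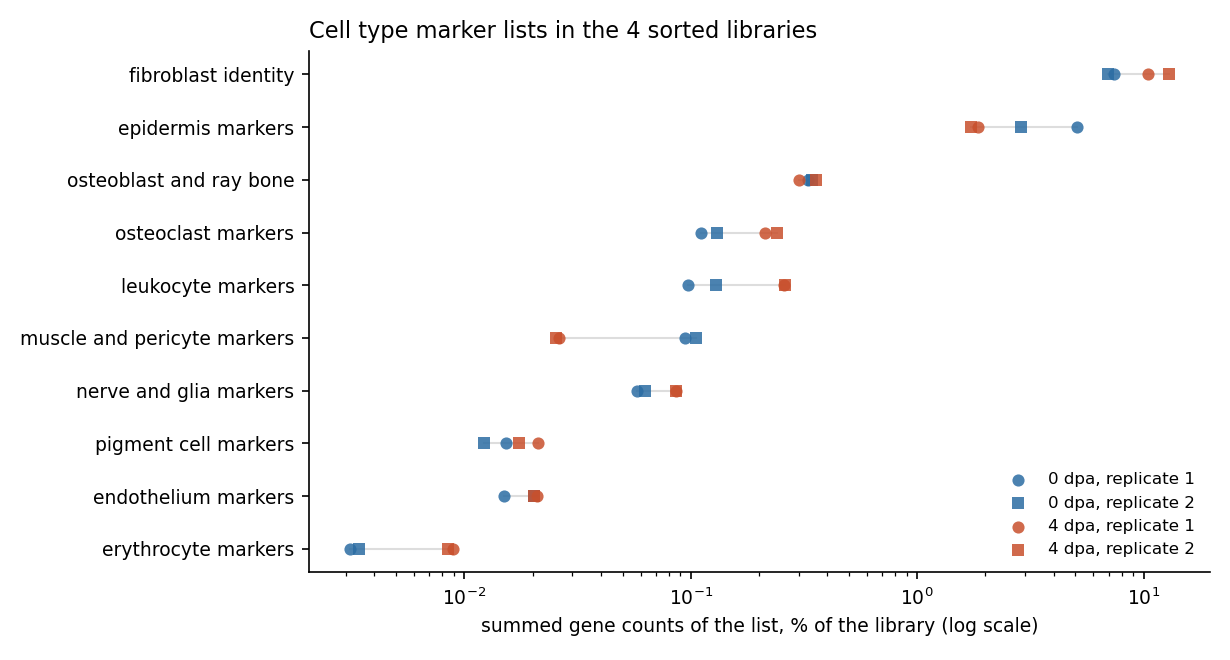
Share of all gene counts (percent, log axis) taken by the summed members of the fibroblast identity list and of 9 marker lists of other cell types, 1 point per library and coloured by group. The fibroblast list rises from 7.44 and 6.93% at 0 dpa to 10.45 and 12.9% at 4 dpa, with the collagen gene col1a1a among its members called higher. At 4 dpa col1a1a alone took 4.83 and 6.51% of gene counts. At 0 dpa it held 596541 of 43871436 and 511980 of 41375969 gene counts. The median log2 fold change of the fibroblast list was -0.09. Epidermis markers fall from 5.08 and 2.89% to 1.86 and 1.72%, and leukocyte markers rise from 0.097 and 0.129% to 0.258 and 0.262%.

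Genes of the fin blastema rose more often than they fell in fibroblasts at 4 dpa, and the increases were led by structural genes of the actinotrichia. Of 29 measured blastema genes 14 rose, 7 fell and 8 did not pass (median log2 fold change 0.57). Without 4 dpa replicate 1 3 fell, and without replicate 2 4 fell. Among all genes tested 27.8% were higher and 26.2% lower, so the share of blastema genes that fell was near that of all genes. The actinodins build the actinotrichia. The gene and2 was read at 3.0 and 6.08 CPM at 0 dpa and 6874 and 8236 CPM at 4 dpa. It was close to silent in both uninjured libraries and high in both regenerating ones (log2 fold change 10.71, edgeR adjusted p = 2.64e-06, SE 0.45), the largest increase of any gene under the naming rule. Its relative and1 stood at 105 and 167 CPM at 0 dpa and 18422 and 22444 CPM at 4 dpa (log2 fold change 7.23, edgeR adjusted p = 1.33e-06, SE 0.34). Together with and3 these genes made up 0.0100 and 0.0152% of the gene counts at 0 dpa and 2.89 and 3.35% at 4 dpa. The third gene, and3, went the other way at a low level, 0.446 and 0.833 CPM at 0 dpa and 0.12 and 0.233 CPM at 4 dpa (log2 fold change -1.83, edgeR adjusted p = 0.0494, SE 0.70); its call was lost without 0 dpa replicate 2, without either 4 dpa library, under both other scalings, without the expression filter, with DESeq2 and with the replicate block. Counts of such related genes depend on how shared reads were treated.

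Tenascin C (tnc), a matrix glycoprotein of remodelling tissue, had 32.4 and 33.4 CPM at 0 dpa and 581 and 784 CPM at 4 dpa, with the groups far apart (log2 fold change 4.37, edgeR adjusted p = 8.65e-07, SE 0.20). Fibronectin fn1a went from 147 and 124 CPM to 337 and 422 CPM (1.48), and the heparin-binding growth factor gene mdka from 1115 and 1448 to 3467 and 3726 CPM (1.49). The other fibronectin gene fn1b and the tenascin family gene tnw were called lower at 4 dpa. Not all calls in the blastema list held without each library in turn. Among transcription factors, sall4, a stem cell factor, had 0.817 and 1.53 CPM at 0 dpa and 30.9 and 25.3 CPM at 4 dpa (log2 fold change 4.59, edgeR adjusted p = 7.38e-06, SE 0.31). The muscle segment homeobox genes split. The level of msxd was higher in both 4 dpa libraries, 65.4 and 116 CPM at 0 dpa and 269 and 267 CPM at 4 dpa (log2 fold change 1.56, edgeR adjusted p = 0.00297, SE 0.27), whereas msxb was lower in both, 944 and 1325 CPM at 0 dpa and 663 and 706 CPM at 4 dpa (log2 fold change -0.73, edgeR adjusted p = 0.0103, SE 0.19; call lost without either 4 dpa library and under library-size scaling). The LIM factor lhx9 (-1.25), the activin subunit inhbaa (-1.55) and the chemokine cxcl12a (-2.49) fell. For cxcl12a, which guides migrating cells, the values were 1520.1 and 1398 CPM at 0 dpa and 262 and 256 CPM at 4 dpa (edgeR adjusted p = 3.74e-06), with no overlap.

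Other genes known from fin regeneration gave no call. Leptin b (lepb), a hormone gene switched on in regenerating fins, had 157 and 238 CPM at 0 dpa and 233 and 204 CPM at 4 dpa; the libraries of the groups interleaved (log2 fold change 0.15, edgeR adjusted p = 0.581, SE 0.21), and a call appeared only without 0 dpa replicate 2. The retinoic acid synthesis gene aldh1a2 had 47.4 and 54.1 CPM at 0 dpa and 64.4 and 64.4 CPM at 4 dpa (log2 fold change 0.34, edgeR adjusted p = 0.0719, SE 0.15; called without 0 dpa replicate 2 and under library-size scaling). The gene fgf20a, the Fgf signal of early blastema formation, was too low to be tested, with 0.198 and 0.139 against 0.024 and 0.117 CPM at 0 against 4 dpa.

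**Figure D2:**
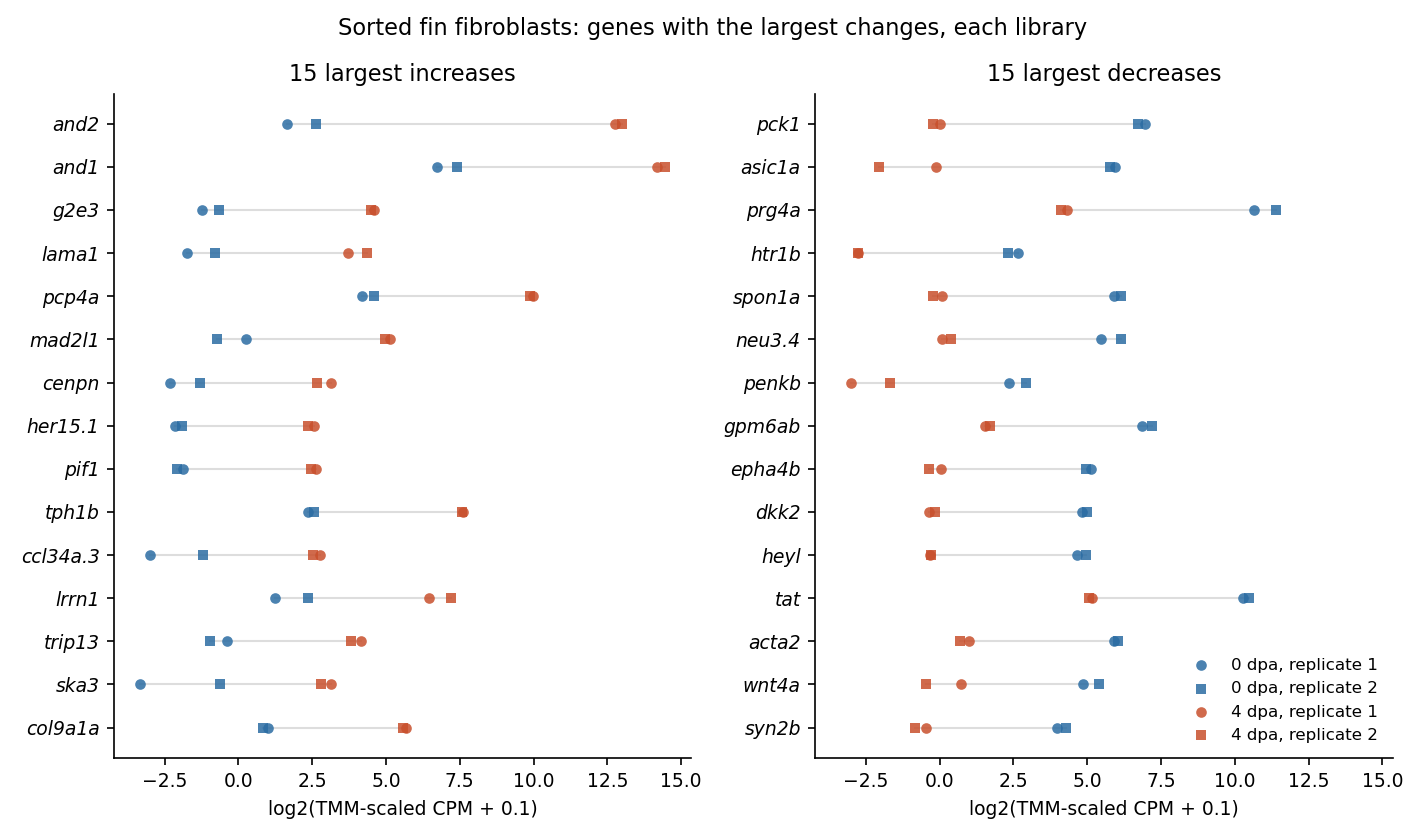
Levels of the 15 largest increases and the 15 largest decreases under the naming rule, as log2(TMM-scaled CPM + 0.1), 1 point per library and coloured by group. The 2 libraries of each group lie close together for nearly all 30 genes, and the actinodin and2 spans the widest range.

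Of 22 collagen chain genes 6 rose, 5 fell and 11 did not pass, with a median of 0.08 (3 fell without 4 dpa replicate 1). These shares are close to the 27.8% higher and 26.2% lower among all genes tested. The chain genes of type I collagen, the main fibrillar collagen of dermis and bone, parted from each other. For col1a1a the values were 14771 and 14213 CPM at 0 dpa and 42359.9 and 59579.8 CPM at 4 dpa (log2 fold change 1.81, edgeR adjusted p = 0.000254, SE 0.25). The other copy, col1a1b, had 21306 and 21042 CPM at 0 dpa and 13714 and 18345 CPM at 4 dpa, and col1a2 23518 and 23487 CPM at 0 dpa and 15413 and 19879 CPM at 4 dpa. Both had slightly lower means at 4 dpa and did not pass the test (edgeR adjusted p = 0.161 and 0.145), although DESeq2 called col1a2 lower and 1 fit of all replicated groups called both lower. The minor fibrillar chains col11a1b (1.36) and col11a1a (1.26) rose and col5a3a (-1.96) fell. The copies of the type IX chain, found on cartilage-type fibrils, moved in opposite directions: col9a1a had 1.88 and 1.69 CPM at 0 dpa and 51.1 and 48.1 CPM at 4 dpa (log2 fold change 4.79, edgeR adjusted p = 6.13e-07, SE 0.19), and col9a1b had 29 and 20.1 CPM at 0 dpa and 2.66 and 2.22 CPM at 4 dpa (log2 fold change -3.33, edgeR adjusted p = 7.55e-06, SE 0.25). Of the short-chain collagens, col8a1a had no count at 0 dpa and 80 counts at 4 dpa, at least 24.1-fold higher against a floor of 3 counts over the group, and col8a2 fell (-2.63). The chain gene col10a1a of bone and cartilage had 1379.7 and 1457 CPM at 0 dpa and 1625 and 2135 CPM at 4 dpa and no call (log2 fold change 0.41, edgeR adjusted p = 0.0939, SE 0.19; called without 0 dpa replicate 2 and under library-size scaling).

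Most enzymes that make a collagen ready for secretion rose. Of 26 collagen processing genes 18 rose and 3 fell (median 0.86), and all but 1 of the 8 hydroxylases passed upward (median 1.12). The lysyl hydroxylase plod1a had 119 and 126 CPM at 0 dpa and 443 and 468 CPM at 4 dpa (log2 fold change 1.90, edgeR adjusted p = 8.74e-06, SE 0.15), and the prolyl hydroxylase p4ha1b rose by 2.14. The cyclophilin ppib, which speeds folding of the chains, had 240.4 and 257 CPM at 0 dpa and 1121 and 1172 CPM at 4 dpa (log2 fold change 2.21, edgeR adjusted p = 5.78e-06, SE 0.16). The propeptidase adamts3, which trims the amino end of fibrillar procollagens, had 19 and 16.5 CPM at 0 dpa and 106 and 119.7 CPM at 4 dpa (log2 fold change 2.67, edgeR adjusted p = 2.64e-06, SE 0.16). In each of these the libraries of a group were close and the groups far apart. The collagen chaperone was split between its copies: serpinh1a had 206 and 262 CPM at 0 dpa and 803 and 856 CPM at 4 dpa (1.82), and serpinh1b 2602 and 3886 CPM at 0 dpa and 2853 and 3733 CPM at 4 dpa, without a call (edgeR adjusted p = 0.947; serpinh1b was picked after its values were seen). The genes that fell were the crosslinking oxidases loxl3a, at 29.4 and 34.2 CPM at 0 dpa and 1.54 and 1.7 CPM at 4 dpa (log2 fold change -4.29, edgeR adjusted p = 1.27e-06, SE 0.21), and loxl2a (-1.16), and the carboxy-end propeptidase bmp1b (-2.33).

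Other matrix genes moved both ways. In the list of fibrils and glycoproteins the share that fell was near the 26.2% lower among all genes tested. Of 43 genes of elastic fibrils and glycoproteins 17 rose and 12 fell (median 0.22; 7 fell without 4 dpa replicate 1). The fibulin efemp2b, a scaffold of elastic fibres, had 12.8 and 9.61 CPM at 0 dpa and 86.1 and 103 CPM at 4 dpa (log2 fold change 3.07, edgeR adjusted p = 3.36e-06, SE 0.19). The fibrillin fbn2b rose (2.41), whereas the elastin gene elna fell (-3.33). Laminins are parts of basement membranes, and the alpha chain gene lama1 had 0.198 and 0.472 CPM at 0 dpa and 13 and 20.6 CPM at 4 dpa (log2 fold change 5.66, edgeR adjusted p = 2.16e-05, SE 0.43). Of the beta chain copies, lamb1a with 176 and 166 CPM at 0 dpa and 549 and 798 CPM at 4 dpa (1.98; picked after its values were seen) and lamb1b with 364 and 255 CPM at 0 dpa and 50.8 and 56.1 CPM at 4 dpa (-2.53). The thrombospondin thbs4a, a protein of tendon and ligament, had 2659 and 2471 CPM at 0 dpa and 129 and 127 CPM at 4 dpa (log2 fold change -4.33, edgeR adjusted p = 7.83e-07, SE 0.19). Periostin (postnb) rose from 1233 and 1194 to 2709.7 and 3075 CPM (1.25).

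Of 13 small proteoglycans, proteins that space and bind collagen fibrils, 7 fell and 1 rose (median -1.02). The one that rose was osteoglycin (ogn), with 304 and 268 CPM at 0 dpa and 987 and 1007 CPM at 4 dpa (log2 fold change 1.80, edgeR adjusted p = 1.76e-05, SE 0.16). Lumican (lum) fell, 5105 and 4514 CPM at 0 dpa and 1842 and 1692 CPM at 4 dpa (log2 fold change -1.44, edgeR adjusted p = 0.000153, SE 0.18), and decorin (dcn) gave no call, with 1576 and 1471 CPM at 0 dpa and 1569.6 and 1464 CPM at 4 dpa (edgeR adjusted p = 0.978). The lubricin genes, which coat joint surfaces, dropped most. For prg4a the values were 1606 and 2698 CPM at 0 dpa and 19.8 and 17.1 CPM at 4 dpa (log2 fold change -6.87, edgeR adjusted p = 3.00e-06, SE 0.32); prg4b fell by 4.43 on the log2 scale. Among matrix proteases, the membrane collagenase activator mmp14b had 644 and 455 CPM at 0 dpa and 1598 and 1841 CPM at 4 dpa (1.65), the collagenase mmp13a 5.97 and 10.5 CPM at 0 dpa and 33.2 and 50.3 CPM at 4 dpa (2.35), and the membrane protease adam8a 25.9 and 50.9 CPM at 0 dpa and 529 and 593 CPM at 4 dpa (3.87). These 3 were higher in both 4 dpa libraries. The gelatinase gene mmp9 was slightly lower (log2 fold change -0.56, edgeR adjusted p = 0.0376, SE 0.20), a call lost without 0 dpa replicate 2, without either 4 dpa library and under library-size scaling. Of the 15 tested genes of the full protease list 5 rose and 5 fell, beside 27.8% higher and 26.2% lower among all genes tested. Fewer fell without either 4 dpa library, and under library-size scaling 6 rose and 3 fell.

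Osteoblast genes fell more often than they rose. Of 24 genes 12 fell, 3 rose and 9 did not pass (median -0.46), and 7 fell without 4 dpa replicate 1. The list summed to 0.329 and 0.344% of gene counts at 0 dpa and 0.301 and 0.358% at 4 dpa, with overlap. In TMM-scaled CPM the sums were 3575 and 3949 at 0 dpa and 2640 and 3275 at 4 dpa, without overlap. Osteocalcin (bglap), a marker of mature osteoblasts, had 123 and 145 CPM at 0 dpa and 11.8 and 9.01 CPM at 4 dpa (log2 fold change -3.69, edgeR adjusted p = 1.56e-06, SE 0.19). Osteopontin (spp1; -2.94), matrix Gla protein (mgp; -2.74) and the phosphatase alpl (-1.16) also fell. The osteoblast factor sp7 was under 0.5 CPM in every library, 0.446 and 0.194 against 0.288 and 0.42 CPM at 0 against 4 dpa. The bone membrane gene ifitm5 had 40.7 and 55.9 CPM at 0 dpa and 50.1 and 53.3 CPM at 4 dpa, and the groups overlapped.

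Signalling genes were lower more often than higher at 4 dpa in each pathway list; under library-size scaling the insulin-like growth factor list came to 7 against 7. The members are given by role, as ligands, receptors, and targets or inhibitors.

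In the Wnt pathway, which drives blastema growth and patterning, 35 of 59 genes fell and 9 rose (median -1.02; 3 rose without 4 dpa replicate 2). Of 19 ligands and their enhancers 12 fell and 2 rose (7 fell without 4 dpa replicate 2). The gene wnt4a had 28.6 and 41.7 CPM at 0 dpa and 1.54 and 0.63 CPM at 4 dpa (log2 fold change -5.02, edgeR adjusted p = 0.00025, SE 0.44). The non-canonical ligand wnt5a went the other way, 33.4 and 30.7 CPM at 0 dpa and 72.1 and 56.7 CPM at 4 dpa (log2 fold change 1.01, edgeR adjusted p = 0.000749, SE 0.17), with both 4 dpa libraries above both at 0 dpa. Of 13 receptor genes 7 fell, among them the Frizzled fzd8a at 68.3 and 68.9 CPM at 0 dpa and 15 and 16.4 CPM at 4 dpa (-2.13). Secreted Wnt inhibitors moved both ways. The gene wif1, whose product binds Wnt ligands, had 925 and 1156 CPM at 0 dpa and 37.2 and 37.8 CPM at 4 dpa (log2 fold change -4.79, edgeR adjusted p = 6.13e-07, SE 0.19); dkk2 had 28.3 and 31.3 CPM at 0 dpa and 0.672 and 0.793 CPM at 4 dpa (-5.34); and the Wnt deacylase notum1a had 69.4 and 91 CPM at 0 dpa and 4.56 and 6.39 CPM at 4 dpa (-3.87). These 3 were low in both 4 dpa libraries. In contrast dkk3b, a divergent Dickkopf family member, had 53.5 and 76.2 CPM at 0 dpa and 658 and 675 CPM at 4 dpa (log2 fold change 3.36, edgeR adjusted p = 3.09e-06, SE 0.20), and dkk3a rose too (4.04). The Frizzled-related genes frzb (-3.28) and sfrp2 (-0.81) fell.

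In the Bmp and Tgfb pathway, which acts in bone and matrix formation, 36 of 63 genes fell and 8 rose (median -0.89). Of 23 ligands 14 fell. The gene bmp3, known in mammals as an antagonistic Bmp of bone, had 289 and 291 CPM at 0 dpa and 9.34 and 11.3 CPM at 4 dpa (log2 fold change -4.81, edgeR adjusted p = 5.22e-07, SE 0.18). The growth factor gene gdf10b rose, 10.1 and 11.9 CPM at 0 dpa and 31.8 and 32.8 CPM at 4 dpa (log2 fold change 1.55, edgeR adjusted p = 6.51e-05, SE 0.17), as did bmp7a (3.00). Extracellular inhibitors fell with the ligands: follistatin fstb had 1521 and 1561 CPM at 0 dpa and 96.9 and 85.1 CPM at 4 dpa (log2 fold change -4.08, edgeR adjusted p = 7.98e-07, SE 0.18) and the noggin gene nog2 97.8 and 101 CPM at 0 dpa and 17.4 and 15.8 CPM at 4 dpa (-2.59). The decoy receptor gene bambib (1.42) and nog1 (0.91) rose. Of 13 receptor genes 5 fell and 8 did not pass (edgeR; 2 without 4 dpa replicate 1).

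All 7 Fgf receptor genes tested fell (median -1.46; 5 did without 4 dpa replicate 1). Fgf signals from blastema and epidermis sustain outgrowth. The receptor fgfr3 had 196 and 224 CPM at 0 dpa and 40.3 and 45.8 CPM at 4 dpa (log2 fold change -2.29, edgeR adjusted p = 4.38e-06, SE 0.16), and fgfr1b and fgfrl1b each fell by 1.46 on the log2 scale. Of 13 ligands 5 fell and 2 rose, though their median changed sign under library-size scaling (-0.06 to 0.26); fgf18a fell (-2.72) and the intracellular family member fgf13a rose (2.17). For fgf10a, a ligand of fin mesenchyme, the groups overlapped at 69 and 81.3 CPM at 0 dpa and 71.3 and 80.8 CPM at 4 dpa (edgeR adjusted p = 0.929; picked after its values were seen). The target etv4 rose, 23.4 and 27.5 CPM at 0 dpa and 48.6 and 46.3 CPM at 4 dpa (log2 fold change 0.90, edgeR adjusted p = 0.00104, SE 0.16), whereas 5 of 13 targets or feedback genes fell (2 without either 4 dpa library).

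**Figure D3:**
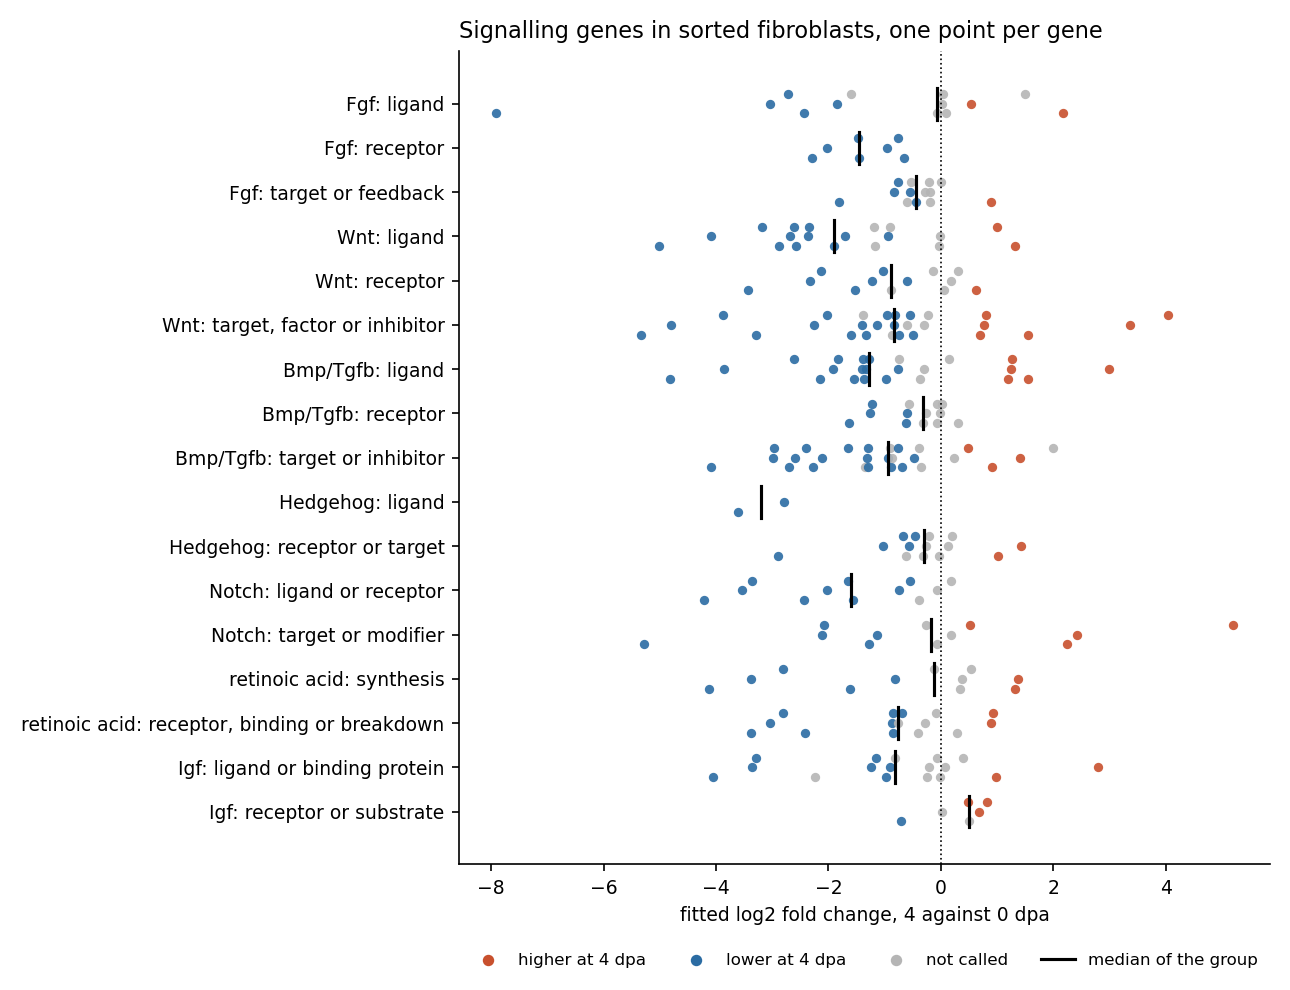
Log2 fold change (4 dpa minus 0 dpa) of each tested gene of the signalling lists, grouped by pathway and role, 1 point per gene. Points are coloured by direction where edgeR's adjusted p was under 0.05 and grey otherwise. The tick marks the median of a role. The medians of Wnt ligands (-1.91), Fgf receptors (-1.46) and Notch ligands or receptors (-1.60) lie below 0.

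Of the Hedgehog ligands, shha comes from the ray epidermis in this tissue. The ligand shha was too low to be tested (0.173 and 0.0555 against 0.048 and 0.0233 CPM at 0 against 4 dpa), and ihha fell from a low level, 8.17 and 13.9 CPM at 0 dpa and 1.61 and 1.59 CPM at 4 dpa (log2 fold change -2.78, edgeR adjusted p = 7.71e-05, SE 0.31). The inhibitor hhip had 117 and 88.9 CPM at 0 dpa and 12.9 and 15 CPM at 4 dpa (log2 fold change -2.89, edgeR adjusted p = 3.74e-06, SE 0.19). The co-receptor gas1a, 374 and 414 CPM at 0 dpa and 1084 and 1026 CPM at 4 dpa (1.42), and the factor gli2a, 52.1 and 54.8 CPM at 0 dpa and 111 and 106 CPM at 4 dpa (1.02), rose. Of 16 genes 7 fell and 2 rose (3 fell without 4 dpa replicate 2 and 4 without replicate 1; 4 rose without 0 dpa replicate 1).

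Of 26 retinoic acid genes 13 fell and 4 rose (median -0.72; 8 fell without 4 dpa replicate 2 and 8 rose without 0 dpa replicate 2). Retinoic acid is needed for blastema growth and is limited by Cyp26 enzymes. The retinol carrier rbp4 had 2102 and 1972 CPM at 0 dpa and 137 and 96 CPM at 4 dpa (log2 fold change -4.13, edgeR adjusted p = 2.06e-06, SE 0.22). The degrading enzyme gene cyp26b1 had 3838 and 3496 CPM at 0 dpa and 727 and 647 CPM at 4 dpa (log2 fold change -2.42, edgeR adjusted p = 7.50e-06, SE 0.18), and cyp26c1 fell as well (-3.37). Both 4 dpa libraries were low for all 3. The binding protein genes crabp2a (0.93) and crabp2b (0.89) rose, while crabp1b fell (-3.04).

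In the Notch list 9 of 12 ligands or receptors fell and the other 3 did not pass (median -1.60; 4 fell without 4 dpa replicate 1 and 5 without replicate 2). The ligand dll4 had 162 and 204 CPM at 0 dpa and 13.9 and 17.6 CPM at 4 dpa (log2 fold change -3.54, edgeR adjusted p = 2.16e-06, SE 0.19). The target heyl had 24.8 and 30.9 CPM at 0 dpa and 0.696 and 0.723 CPM at 4 dpa (log2 fold change -5.29, edgeR adjusted p = 8.65e-07, SE 0.25), and her9 fell (-2.08). Another hairy-related gene, her15.1, was near 0 at 0 dpa and higher in both 4 dpa libraries, 0.124 and 0.167 CPM at 0 dpa and 5.78 and 5.04 CPM at 4 dpa (log2 fold change 5.20, edgeR adjusted p = 9.60e-06, SE 0.41); her15.1 has near-identical copies, so its counts are uncertain.

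Among insulin-like growth factor genes the ligand igf1 fell, 16 and 13.5 CPM at 0 dpa and 1.73 and 1.28 CPM at 4 dpa (log2 fold change -3.30, edgeR adjusted p = 9.60e-06, SE 0.26), and the inhibitor of Igf binding protein cleavage stc2a fell from 39.4 and 40.5 to 2.47 and 2.31 CPM (-4.06). The binding protein gene igfbp1a rose, 26.5 and 19.7 CPM at 0 dpa and 176 and 146 CPM at 4 dpa (log2 fold change 2.80, edgeR adjusted p = 5.57e-06, SE 0.19). Of 33 axon guidance genes 21 fell and 4 rose (median -1.0; 7 rose without 0 dpa replicate 1). The netrin ntn1a had 754 and 685 CPM at 0 dpa and 38.5 and 32.2 CPM at 4 dpa (log2 fold change -4.35, edgeR adjusted p = 6.83e-07, SE 0.18), and the semaphorin sema3ab fell (-3.90). The Slit receptor family gene robo3 went up, 12.4 and 16.1 CPM at 0 dpa and 128 and 183 CPM at 4 dpa (log2 fold change 3.45, edgeR adjusted p = 1.10e-05, SE 0.23), and so did the netrin receptor unc5b (2.28).

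Nearly all cell division genes rose. Of 47 DNA replication genes 43 rose and 4 did not pass (median 1.88). Of 48 mitosis genes 45 rose and 3 did not pass (median 3.61). The polymerase clamp pcna had 98.1 and 108 CPM at 0 dpa and 225 and 223 CPM at 4 dpa (log2 fold change 1.12, edgeR adjusted p = 0.000142, SE 0.14) and the replicative helicase subunit mcm5 22.4 and 24.3 CPM at 0 dpa and 67.3 and 75.1 CPM at 4 dpa (log2 fold change 1.61, edgeR adjusted p = 2.50e-05, SE 0.15). Both genes were also read in uninjured cells, and their groups did not overlap. The proliferation antigen mki67 had 12 and 7.19 CPM at 0 dpa and 127 and 151 CPM at 4 dpa (log2 fold change 3.85, edgeR adjusted p = 2.49e-05, SE 0.27). The mitotic cyclin ccnb1 had 2.06 and 1.64 CPM at 0 dpa and 30.1 and 28.7 CPM at 4 dpa (log2 fold change 3.99, edgeR adjusted p = 1.77e-06, SE 0.21), and the spindle checkpoint gene mad2l1 1.09 and 0.50 CPM at 0 dpa and 34.8 and 31.3 CPM at 4 dpa (log2 fold change 5.36, edgeR adjusted p = 6.26e-06, SE 0.32). All of these were low in both uninjured libraries. The checkpoint ligase gene g2e3, the centromere gene cenpn, the helicase pif1 and the checkpoint ATPase trip13 were also among the 15 largest increases (5.78, 5.20, 5.16 and 4.85); the spindle gene ska3 (4.85) was another, but lost its call without either 4 dpa library and with DESeq2. Genes that hold the cycle back were mixed. Of 25 such genes 8 rose and 9 fell, beside 27.8% higher and 26.2% lower among all genes tested. Fewer rose without 4 dpa replicate 1, and under library-size scaling 11 rose and 7 fell. The inhibitor cdkn1a had 112 and 141 CPM at 0 dpa and 119 and 105 CPM at 4 dpa, with overlap (edgeR adjusted p = 0.39; called without 0 dpa replicate 1), the kinase inhibitor gene cdkn1ca rose (1.41), and the antiproliferative gene btg2 fell (-2.08).

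**Figure D4:**
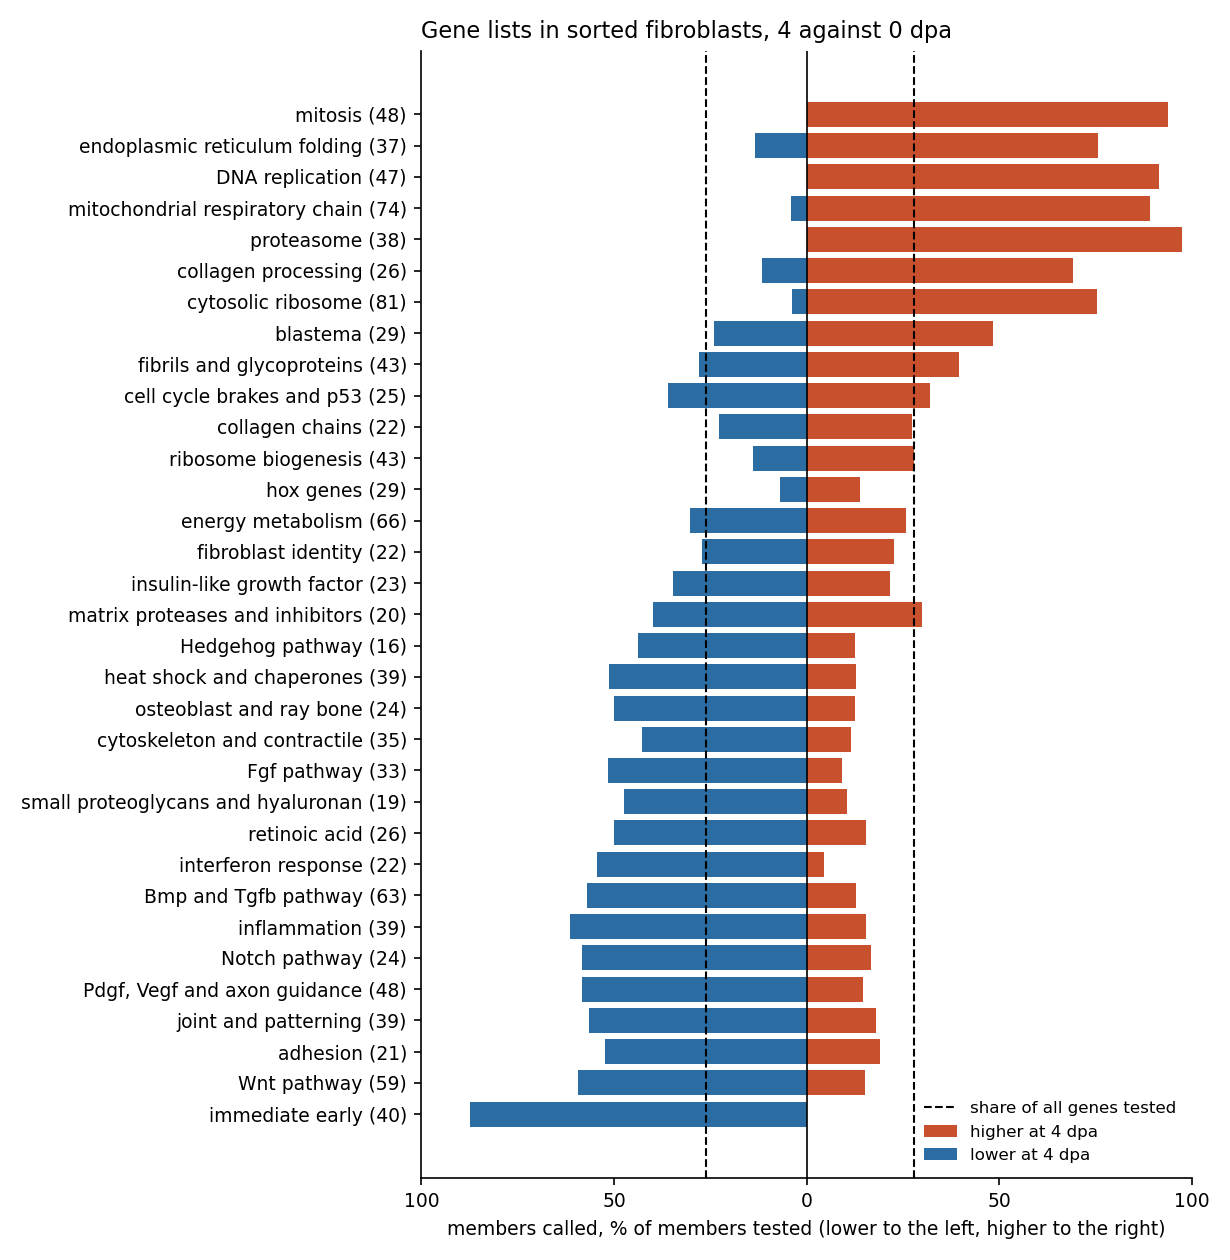
Percent of the tested members of each gene list that were higher (right) or lower (left) at 4 dpa at an edgeR adjusted p under 0.05; dashed lines mark the shares over all genes tested, 27.8% higher and 26.2% lower. DNA replication, mitosis, proteasome, respiratory chain, endoplasmic reticulum folding and cytosolic ribosome lists extend furthest to the right and the immediate early list furthest to the left. The separate ribosome biogenesis list had 12 of 43 members higher, near the share over all genes tested, and 6 lower.

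Immediate early and heat shock genes took large shares of the counts in uninjured cells and fell. Of 40 immediate early genes, which respond within minutes to stimuli, 35 fell and 5 did not pass (median -1.80), and the list summed to 5.67 and 6.25% of gene counts at 0 dpa and 1.91 and 1.55% at 4 dpa. The gene fosab had 12845 and 15068 CPM at 0 dpa and 1591 and 1126 CPM at 4 dpa (log2 fold change -3.36, edgeR adjusted p = 6.47e-06, SE 0.25). The gene jun had 4184 and 4444 CPM at 0 dpa and 686 and 761 CPM at 4 dpa (log2 fold change -2.58, edgeR adjusted p = 5.57e-06, SE 0.18), and mycb had 1469 and 1747 CPM at 0 dpa and 90.2 and 77.2 CPM at 4 dpa (log2 fold change -4.26, edgeR adjusted p = 8.65e-07, SE 0.20). Each of these was lower in both 4 dpa libraries. Of 39 heat shock and chaperone genes tested 20 fell and 5 rose (median -0.43). The 41 found took 9.99 and 12.8% of gene counts at 0 dpa and 4.05 and 3.9% at 4 dpa. The inducible chaperone gene hsp70.1 had 39819.8 and 58377 CPM at 0 dpa and 8279 and 7136 CPM at 4 dpa (log2 fold change -2.67, edgeR adjusted p = 3.56e-05, SE 0.27), and hsp90aa1.2 had 16761 and 22621 CPM at 0 dpa and 4041 and 4746 CPM at 4 dpa (-2.16). Near-identical Hsp70 genes share reads, so hsp70.1 and hsp70l (-2.17) are uncertain one by one. The labels give no separate dissociation or sort time for each group.

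Genes of protein folding in the secretory pathway rose. Of 37 endoplasmic reticulum folding genes 28 rose and 5 fell (median 1.96). The folding factor creld2 rose by 2.93, the translocon-associated subunit ssr4 had 79.3 and 96.2 CPM at 0 dpa and 761 and 683 CPM at 4 dpa (log2 fold change 3.04, edgeR adjusted p = 2.21e-06, SE 0.17), and the Hsp70 cofactor sdf2l1 had 8.22 and 12.9 CPM at 0 dpa and 136 and 111 CPM at 4 dpa (3.55; picked after its values were seen). Both 4 dpa libraries were high in each. The lumenal Hsp70 hspa5 had 4110.3 and 6612 CPM at 0 dpa and 5580.5 and 7018 CPM at 4 dpa, with overlap (edgeR adjusted p = 0.473; called without 0 dpa replicate 2). The genes that fell were the stress factors ddit3 (-1.97), xbp1 (-1.14), atf4b (-1.41) and atf4a (-0.37), and the disulfide isomerase pdia2 (-4.55); of the libraries left out in turn, only the fit without 0 dpa replicate 2 kept the call of atf4a, and library-size scaling lost it.

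Genes of protein turnover and respiration rose as groups. Of 38 proteasome subunits 37 rose and the other did not pass (median 1.54); psma5 had 45.7 and 43.7 CPM at 0 dpa and 367 and 301 CPM at 4 dpa (log2 fold change 2.90, edgeR adjusted p = 2.19e-06, SE 0.16). Of 74 respiratory chain subunits 66 rose and 3 fell (median 1.72; those lower lost their calls without either 4 dpa library). The cytochrome oxidase subunit cox7a2a had 17 and 15.4 CPM at 0 dpa and 151 and 127 CPM at 4 dpa (log2 fold change 3.10, edgeR adjusted p = 1.67e-06, SE 0.16). Summed, the respiratory chain took 0.349 and 0.345% of gene counts at 0 dpa and 1.16 and 1.04% at 4 dpa. Of 81 cytosolic ribosomal protein genes 61 rose and 3 fell (median 0.69), but 36 rose without 4 dpa replicate 1. The 82 ribosomal protein genes found summed to 1.42 and 1.32% of gene counts at 0 dpa and 2.52 and 2.24% at 4 dpa. For rpl11 the values were 68.8 and 73.6 CPM at 0 dpa and 202 and 188 CPM at 4 dpa (log2 fold change 1.45, edgeR adjusted p = 2.99e-05, SE 0.14). In all 3 groups of genes both 4 dpa libraries had the higher sums.

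Of 66 metabolic genes 17 were higher and 20 lower (11 higher without 4 dpa replicate 1; 11 lower without 4 dpa replicate 2; under library-size scaling 25 higher and 14 lower). These shares are near the 27.8 and 26.2% of all genes tested. The gluconeogenic enzyme gene pck1 had 124 and 106 CPM at 0 dpa and 0.912 and 0.747 CPM at 4 dpa (log2 fold change -7.11, edgeR adjusted p = 5.22e-07, SE 0.22), the largest decrease under the naming rule, and the tyrosine aminotransferase gene tat had 1237 and 1427 CPM at 0 dpa and 35.8 and 33 CPM at 4 dpa (log2 fold change -5.27, edgeR adjusted p = 5.22e-07, SE 0.19). Both enzymes are known targets of glucocorticoid and fasting signals in liver. The lipid droplet gene plin2 rose, 2.9 and 3.58 CPM at 0 dpa and 40.1 and 43.7 CPM at 4 dpa (log2 fold change 3.69, edgeR adjusted p = 1.67e-06, SE 0.20), as did the fatty acid carriers fabp11a (3.92) and fabp7a (2.46) and the adipogenic receptor pparg (1.78). The factor cebpd fell, 882 and 916 CPM at 0 dpa and 102 and 79 CPM at 4 dpa (-3.31).

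Of 39 inflammation genes 24 fell and 6 rose (median -0.93). The chemokine ccl25b had 368 and 354 CPM at 0 dpa and 16.5 and 13.8 CPM at 4 dpa (log2 fold change -4.57, edgeR adjusted p = 5.78e-07, SE 0.17). The prostaglandin synthase gene ptgs2a fell (-2.49), and cxcl18b fell (-3.19). The cytokine il1b rose, 5.13 and 11.9 CPM at 0 dpa and 74.2 and 35.7 CPM at 4 dpa (log2 fold change 2.70, edgeR adjusted p = 0.0178, SE 0.58), with a wide spread within each group. Of 22 interferon response genes 12 fell and 1 rose, the latter lost without either 4 dpa library; the antigen presentation genes b2ml (-1.73) and mhc1zba (-1.92) were among those lower.

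Joint and patterning genes fell more often than they rose. Of 39 joint and patterning genes 22 fell and 7 rose (median -0.99; 14 fell without either 4 dpa library, and 3 rose without 4 dpa replicate 2). The tendon factor mkxa had 37.4 and 40.8 CPM at 0 dpa and 4.7 and 4.97 CPM at 4 dpa (log2 fold change -3.01, edgeR adjusted p = 2.37e-06, SE 0.18). The factor osr1 had 158 and 204 CPM at 0 dpa and 34.3 and 28.1 CPM at 4 dpa (log2 fold change -2.54, edgeR adjusted p = 6.43e-06, SE 0.18). The joint factor evx1 had 75.7 and 91.5 CPM at 0 dpa and 38.2 and 45.7 CPM at 4 dpa (log2 fold change -0.99, edgeR adjusted p = 0.000756, SE 0.16). All 3 were lower in both 4 dpa libraries. The homeobox cofactor pbx1a fell (-2.18), while prrx1b rose, 97.6 and 138 CPM at 0 dpa and 273 and 313 CPM at 4 dpa (log2 fold change 1.32, edgeR adjusted p = 0.000422, SE 0.19), with the limb factors dlx6a (1.34) and lmx1ba (3.64). Of 29 hox genes 4 rose and 2 fell, and each of these calls was lost without one library or another: without 0 dpa replicate 1, 8 fell, and without 4 dpa replicate 2 edgeR's test called no hox gene.

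Several contractile genes fell. Of 35 cytoskeletal genes 15 fell and 4 rose (median -0.52; 2 rose without either 4 dpa library). Smooth muscle actin (acta2), a marker of contractile fibroblasts and pericytes, had 60.1 and 65.6 CPM at 0 dpa and 1.9 and 1.52 CPM at 4 dpa (log2 fold change -5.20, edgeR adjusted p = 5.78e-07, SE 0.20). The pericyte gene rgs5b had 670.2 and 749 CPM at 0 dpa and 119 and 114 CPM at 4 dpa (log2 fold change -2.61, edgeR adjusted p = 2.74e-06, SE 0.16). Tropomyosin tpm1 fell (-2.39) and tpm4b rose (2.26); the transgelin family gene tagln3b had 1.46 and 0.777 CPM at 0 dpa and 28.8 and 30.1 CPM at 4 dpa (log2 fold change 4.70, edgeR adjusted p = 4.13e-06, SE 0.29). Intermediate filament gene vim fell, 107 and 101 CPM at 0 dpa and 16.4 and 13.7 CPM at 4 dpa (log2 fold change -2.79, edgeR adjusted p = 2.36e-06, SE 0.16). Among adhesion genes 11 of 21 fell and 4 rose (6 rose without 0 dpa replicate 1). The mesenchymal cadherin cdh11 had 285 and 261 CPM at 0 dpa and 28.9 and 38.7 CPM at 4 dpa (log2 fold change -3.01, edgeR adjusted p = 2.71e-06, SE 0.18), the collagen-binding integrin itga11a fell (-2.32), and N-cadherin (cdh2) rose, 322 and 279.7 CPM at 0 dpa and 534 and 643 CPM at 4 dpa (log2 fold change 0.97, edgeR adjusted p = 0.000942, SE 0.17).

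The 15 largest changes each way include genes outside these lists. The calmodulin-binding peptide gene pcp4a had 18.2 and 24.2 CPM at 0 dpa and 1010.3 and 939 CPM at 4 dpa (log2 fold change 5.52, edgeR adjusted p = 5.78e-07, SE 0.21), and the neuronal leucine-rich repeat gene lrrn1 2.28 and 4.97 CPM at 0 dpa and 87.8 and 148 CPM at 4 dpa (log2 fold change 5.03, edgeR adjusted p = 0.0014, SE 0.51). Both were higher in both 4 dpa libraries. The chemokine ccl34a.3 rose from under 1 CPM to 6.7 and 5.69 CPM (5.14). On the other side the proton-gated channel gene asic1a had 61.1 and 54.3 CPM at 0 dpa and 0.816 and 0.14 CPM at 4 dpa (log2 fold change -6.92, edgeR adjusted p = 0.000866, SE 0.62). The floor plate and matrix gene spon1a had 60.5 and 70.5 CPM at 0 dpa and 0.96 and 0.747 CPM at 4 dpa (log2 fold change -6.26, edgeR adjusted p = 5.22e-07, SE 0.22). The serotonin receptor gene htr1b had 6.24 and 4.86 CPM at 0 dpa and 0.048 and 0.0467 CPM at 4 dpa (log2 fold change -6.78, edgeR adjusted p = 5.34e-06, SE 0.48). Each of these was near 0 in both 4 dpa libraries. The opioid precursor penkb (-5.70), the sialidase neu3.4 (-5.72), the membrane glycoprotein gpm6ab (-5.47), the Eph receptor epha4b (-5.35) and the synapsin syn2b (-4.98) were the others.

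The same interval was measured in whole fins of batch 1, where 7805 of 11912 genes (65.5%) differed between 4 and 0 dpa. There 3876 genes (32.5% of those tested) were higher and 3929 (33%) lower at 4 dpa. Of 11496 genes tested in both tissues, 2113 were higher in both, which is 64.2% of the genes higher in fibroblasts and 55.5% of those higher in whole fins. A further 1846 were lower in both (61 and 49.5%). In 411 genes the fibroblasts were lower and the whole fin higher (13.6% of the genes lower in fibroblasts), and in 303 the reverse (9.21% of the genes higher in fibroblasts). The difference between the responses was tested as a contrast of the 4 groups, fibroblast change minus whole-fin change: 4511 of 12442 genes (36.3%) passed, 2345 toward a more positive change in fibroblasts (18.8%) and 2166 toward a more negative one (17.4%). Without whole-fin 4 dpa replicate 1 the test called 2971 genes, 1460 of them more positive in fibroblasts, and without whole-fin 0 dpa replicate 2 it called 1338 as more positive. Under library-size scaling 38.9% of the calls were more positive in fibroblasts instead of 52.0%. Tissue, strain, transgene, tamoxifen and batch all differ between the sets and cannot be told apart.

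Most genes that mark fibroblasts rose in the whole fin, and fewer did in the sorted cells. The fibroblast identity list had 18 of 22 members higher and 2 lower in whole fins, against 5 higher and 6 lower of 22 in fibroblasts. The fibroblast shares lay near the 27.8% higher and 26.2% lower among all genes tested there. In whole fins 32.5% of all genes tested were higher and 33% lower. In the difference test 19 of 22 members passed toward a more negative change in fibroblasts. For prrx1a the fin values were 71.4 and 72.8 CPM at 0 dpa and 175 and 173 CPM at 4 dpa (log2 fold change 1.3, edgeR adjusted p = 1.02e-05), where the sorted cells had no call (difference -0.97, SE 0.20, edgeR adjusted p = 0.00339). For the osteoblast list the whole fin had 19 of 25 members higher and 3 lower, and 19 of 25 passed toward a more negative change in fibroblasts. Bone collagen col10a1a went from 442 and 345 CPM to 13772 and 12224 CPM in fins (difference -4.63, SE 0.31, edgeR adjusted p = 6.76e-06). Of 29 blastema genes 20 passed toward a more negative change in fibroblasts and 2 toward a more positive one. Epidermis markers went down in the whole fin, with 28 of 35 lower and 1 higher. Scaled over the 8 libraries, they summed in fins to 216003 and 272742 CPM at 0 dpa. At 4 dpa the sums were 72805.5 and 68393.7 CPM. The part of this shift in the whole-fin rises was not tested.

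Single genes differed between fin and sorted cells. Fins had lepb at 0.419 and 0.184 CPM at 0 dpa and 34.5 and 24.9 CPM at 4 dpa, a rise of 6.66. The fibroblast libraries held 157 to 238 CPM in both groups (difference -6.48, SE 0.47, edgeR adjusted p = 2.74e-05). Scaled over the 8 libraries, the uninjured means of lepb were 208.9 CPM in fibroblasts and 0.302 CPM in fins. The cause of this difference at 0 dpa was not tested. The homeobox gene msxb rose in the fin (1.71) and fell in fibroblasts, a call lost there without either 4 dpa library (difference -2.41, SE 0.27, edgeR adjusted p = 8.98e-05), and cxcl12a had 202 and 179 CPM at 0 dpa and 123 and 112 CPM at 4 dpa in fins (difference -1.79, SE 0.21, edgeR adjusted p = 0.000131). The actinodin and2, in contrast, rose in both: the fin values were 13.5 and 10.9 CPM at 0 dpa and 2327 and 2237 CPM at 4 dpa (log2 fold change 7.57), and the difference was 3.17, SE 0.40, edgeR adjusted p = 0.000228.

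Ribosomal protein genes went opposite ways. In whole fins 77 of 81 fell and the others did not pass, whereas 61 of 81 rose in fibroblasts, and 80 of 81 passed the difference test toward a more positive change in fibroblasts. The summed level in fins was 159295 and 226815 CPM at 0 dpa and 81603 and 80921 CPM at 4 dpa. In fibroblasts, scaled on their own 4 libraries, it was 15468 and 15185 CPM at 0 dpa. At 4 dpa it was 22125.5 and 20506 CPM there, still well below the fins. For rpl11 the fin had 1665 and 2322 CPM at 0 dpa and 887 and 921 CPM at 4 dpa (-1.11; difference 2.60, SE 0.26, edgeR adjusted p = 4.90e-05). Respiratory chain genes rose in both, 38 of 74 in fins (median 0.32), beside 32.5% higher among all genes tested in fins. Of the 74, 61 passed toward a larger change in fibroblasts. Of 38 heat shock and chaperone genes tested in fins 17 rose and 8 fell, against 5 and 20 of 39 in fibroblasts. The list summed to 9049 and 9966 CPM in uninjured fins. In uninjured fibroblasts, scaled on their own 4 libraries, it summed to 108550 and 146735 CPM. The cause of this difference at 0 dpa was not tested. Immediate early genes fell in both, 32 of 39 in fins. DNA replication and mitosis rose in fins too, 47 of 47 and 47 of 47.

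**Figure D5:**
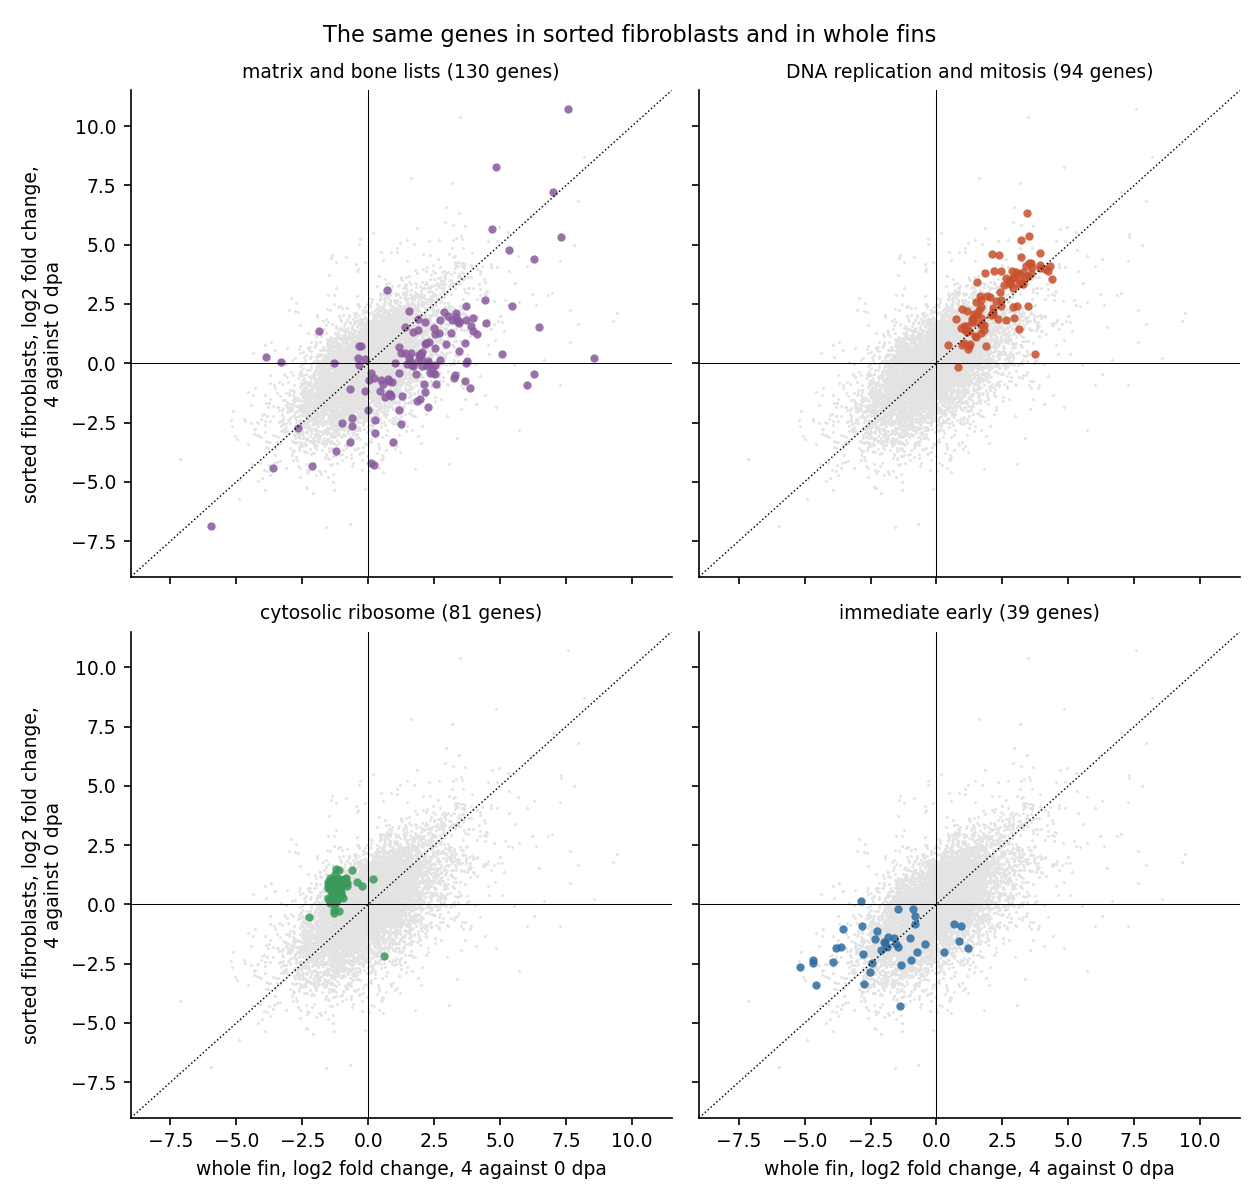
Log2 fold change at 4 against 0 dpa in sorted fibroblasts and in whole fins of batch 1, 1 point per gene, in 4 panels: matrix and bone lists, DNA replication and mitosis, cytosolic ribosome, and immediate early genes; the dotted line marks an equal change. Matrix and bone genes lie mostly on the whole-fin side of the line, ribosomal protein genes rise in fibroblasts and fall in fins, and division genes rise in both.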

How the data were processed

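RNA-seq libraries were made with a stranded mRNA kit, per the labels' protocols. The deposited values are whole-number read counts per gene and library, with 14781 gene symbols and 5 summary entries, per the file headers and values; reads assigned to no gene were 29.9 to 32.9% in the 4 fibroblast libraries and stayed out. The submitters' processing notes name MACS2, Picard 1.91, SAMtools 1.5, Bowtie2 2.2.5, HTSeq 1.6.1, TopHat2 2.1.1, Trim Galore (0.4.1, 0.6.4) and danRer10; not given in the sources used here were which tool served which assay, the annotation, and the counting's strand setting. Reads of overlapping, antisense or near-identical genes therefore cannot be told apart.

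The counts were tested with edgeR 4.0.16 in R 4.3.3 (TMM scaling, its expression filter, robust quasi-likelihood F test, two-sided, Benjamini-Hochberg adjustment over all genes tested), fibroblasts on their 4 libraries and the response difference on those and 4 whole-fin libraries of batch 1. Replicates differed by more than sampling noise (chi-square per degree of freedom 121 at 0 dpa and 41.4 at 4 dpa), so each was counted as a sample; p-values measure the spread between pools of fish. In simulated data the fibroblast test recovered 36% of genes changed 2-fold and 92% of those changed 4-fold, with 16 unchanged genes called among 11877. The response difference recovered 22 and 87%. The simulation changed 100 genes at each fold. Far more genes were called in the real data, where the adjusted p sets a less strict cutoff, so these rates need not hold there. Alternatives were other scalings, no filter, DESeq2 1.42.0, a replicate block, 1 fit of all replicated groups, and each library left out. A fold with 0 counts in a group used a floor of 3 counts over the group.

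The samples and the 41 gene lists, written from textbook knowledge, were chosen with earlier results of these data known; 1451 of 1702 symbols were found, 34 under another symbol from a gene table of the assembly GRCz12tu. Named were the 15 largest increases and decreases among called genes without overlap that averaged 5 CPM or more in the higher group, the 10 highest mean CPM of each group, key genes, up to 5 called members of each list each way by smallest p, and the 8 largest response differences each way. Defining markers were named as well, and other genes are said to be picked after their values were seen. The 18 accessibility samples were not analysed here.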

Additional observations from a re-analysis of the deposited data

Results flagged for a closer look

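The change from 0 to 4 dpa differed between sorted fibroblasts and whole fins of batch 1 in 4511 genes by the test of the difference itself. The 8 largest such differences each way are given here as log2 values, fibroblast change minus whole-fin change. They come from sets that also differ in batch, strain and handling, which cannot be told apart from the tissue.

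More positive in fibroblasts were ba1l (5.98) and hbaa1 (5.51), globin genes of red blood cells. The gene ba1l had 0.198 and 0.222 CPM at 0 dpa and 4.7 and 5.27 CPM at 4 dpa in fibroblasts and 5.56 and 12.2 CPM at 0 dpa and 2.54 and 4.13 CPM at 4 dpa in fins, so it rose from near 0 in one and fell in the other; globin genes are near-identical copies, and their counts are uncertain. The apolipoprotein gene apoda.1 (5.72) stood at about 1 CPM or less in every fibroblast library, and its own call there was lost without either 4 dpa library. The ependymin-like gene epdl1 (5.31) had 21.7 and 27 CPM at 0 dpa and 104 and 128 CPM at 4 dpa in fibroblasts and 111 and 101 CPM at 0 dpa and 12.5 and 13.2 CPM at 4 dpa in fins. The arginase gene arg2 (4.85) had 185 and 463 CPM at 0 dpa and 16 and 14.5 CPM at 4 dpa in fins, against 442 and 646 CPM at 0 dpa and 675 and 792 CPM at 4 dpa in fibroblasts, where it gave no call (it did without 0 dpa replicate 2, with the replicate block and under library-size scaling). The other differences in this direction were mpeg1.3 (4.72), a macrophage gene of the mpeg1 family, the cation channel trpm2 (4.65) and the vitamin A receptor gene stra6 (4.63). In fibroblasts stra6 was too low to be tested on its own.

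More negative in fibroblasts was scpp6 (-8.32), a secretory calcium-binding phosphoprotein gene, which was under 1 CPM in every fibroblast library and had 0 and 0.0459 CPM at 0 dpa and 11 and 10 CPM at 4 dpa in fins. The basement membrane genes frem2a (-6.89) and frem3 (-6.70) rose in fins; frem2a had 4.25 and 4.18 CPM at 0 dpa and 246 and 287 CPM at 4 dpa there and 4.06 and 7.75 CPM at 0 dpa and 2.95 and 3.29 CPM at 4 dpa in fibroblasts, a fall whose call was lost without 0 dpa replicate 2, without either 4 dpa library and under library-size scaling. The histamine receptor hrh3 (-6.64) rose in fins, from 1.15 and 0.597 CPM to 24.7 and 23.9 CPM (4.84), and fell in fibroblasts, from 22.7 and 26.2 CPM to 8.19 and 5.48 CPM (-1.84). The serotonin receptor htr1b (-6.02) fell in fibroblasts. The leptin gene lepb (-6.48) and the Hedgehog ligand shha (-5.33) rose in fins; shha was near 0 in fibroblasts. For lgsn (-6.99) both uninjured whole fins had 0 counts, so the fitted value is no measured fold; the fibroblasts had 8.22 and 14.4 CPM at 0 dpa and 3.6 and 5.6 CPM at 4 dpa, lower by a call that was lost without 4 dpa replicate 1.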

How the results depend on the processing

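DESeq2 size factors, no expression filter, the DESeq2 test and the replicate block left the count of genes called in fibroblasts between 6377 and 6481, against 6477; library size alone gave 6673 (4519 higher, 2154 lower) and 1 fit of all replicated groups 8247 (3716 higher, 4531 lower). Leaving out 1 library gave 3827 to 7525 called genes, 2086 to 3756 of them higher and 1741 to 3769 lower. Genes called with at least a 2-fold change numbered 3163 to 4558 over these, against 4089. The response difference had 4309 to 4503 calls under DESeq2 size factors, no filter, DESeq2 and the replicate block; library size alone gave 3829 calls, 1489 more positive in fibroblasts, and 1 fit of all replicated groups gave 5640, of which 3561 were more negative. Leaving out 1 library gave 2971 to 5167, with 1338 to 2150 more positive and 1511 to 3125 more negative. Deviations of same-numbered libraries from their group means correlated at Pearson 0.0689 and Spearman 0.0765 over genes. With 2 pairs this cannot decide whether the replicate numbers pair the samples. The replicate block called 6475 genes in fibroblasts and 4503 in the difference. Genes without a call changed sign near 0. Under library-size scaling cdkn1a came to 0.15 and dcn to 0.31 (0.0080 without a filter), and the fit of all groups gave -0.089 for fgf10a, -0.0091 for ifitm5 and -0.084 for serpinh1b. With 1 library left out the log2 fold change ran from -0.073 to 0.054 for dcn, -0.13 to 0.13 for fgf10a, -0.10 to 0.60 for hspa5, -0.15 to 0.33 for ifitm5, -0.16 to 0.46 for lepb, -0.059 to 0.32 for pdgfra, -0.15 to 0.54 for scpp6, -0.27 to 0.33 for serpinh1b and -0.34 to 0.83 for sp7. In simulated data with 2 libraries a group and few changed genes, 2-fold changes were often missed.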
